A study of Danio rerio with 6 samples.

Results

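The core cardiac transcription factors are the DNA-binding proteins that install and maintain the heart muscle programme of vertebrates, and their genes were followed here in dissected zebrafish hearts at 56 and 48 hours post fertilization (hpf). The genes were chosen by exact gene name from a list of 10 names. Of these, 9 were matched among the 29978 genes of the files: *gata4*, *gata5*, *nkx2.5*, *nkx2.7*, *tbx5a*, *tbx20*, *hand2*, *mef2ca* and *mef2aa*. The remaining name, *gata6*, was not matched and is not analysed here.

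Hearts were dissected from zebrafish embryos at 56 hpf and at 48 hpf and pooled, with 3 pools at each stage, and the labels give no treatment for either. The labels give the AB line for all 6 pools, whereas the methods of the study name *Tg(myl7:EGFP)* embryos, which carry a green fluorescent reporter in heart muscle. RNA was sequenced from each pool, reads aligned uniquely to the Zv9 assembly were counted on genes, and the files give these counts divided by a size factor of each library. The counts were recovered from the files and scaled with size factors drawn from these 6 libraries, and a level below is a normalized count, that is, reads divided by this factor.

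GATA factors are zinc finger proteins, Nkx2 factors carry a homeodomain, Tbx5 and Tbx20 a T-box, Hand2 a basic helix-loop-helix domain and Mef2 factors a MADS box. In vertebrate hearts they bind near one another at the regulatory regions of contractile and natriuretic peptide genes, and they also sustain each other's transcription. In zebrafish, loss of *gata5* or *hand2* leaves too few myocardial cells, *tbx5a* is the heartstrings gene required for heart looping and pectoral fins, and *nkx2.5* and *nkx2.7* act together to maintain chamber identity. None of the 9 genes is confined to heart muscle. GATA factors, for example, are also used in gut and liver, and Hand2 and Mef2c in the pharyngeal arches. Tbx5 is also used in the fin or limb bud, Tbx20 in endocardium and Mef2 factors in skeletal muscle.

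Reads counted on genes ranged from 19610492 to 25427381 in the 56 hpf pools and from 14369087 to 26942838 in the 48 hpf pools. Each of the 9 genes was well above the floor of detection, taken as 3 reads, with between 255 and 11170 reads in any library, and all 9 passed the filter on low counts by either stage. Myocardial genes were high in every pool, but the pools were not free of other tissues. The myosin light chain gene *myl7* had 50467, 48759 and 52022 normalized counts at 56 hpf, against 35581, 88174 and 108390 at 48 hpf, and the ventricular myosin gene *vmhc* had 42818, 41823 and 45326 at 56 hpf, against 89883, 169490 and 145370 at 48 hpf. Replicate 1 at 48 hpf was low for heart genes. The 19 measured genes of a myocardium list summed to 471645 normalized counts in that pool, against 1008210 and 1184850 in replicates 2 and 3 of the same stage. At 56 hpf this list summed to 507521, 464146 and 454856. The 10 genes of an epidermis list summed to 452331, 746509 and 694263 at 56 hpf, against 427581, 347508 and 179330 at 48 hpf. Epidermal genes were thus read in every pool, and the share of epidermal RNA in a pool was not estimated. Over all genes replicate 1 at 48 hpf had correlations of 0.956 and 0.922 to replicates 2 and 3 of its stage, which correlated at 0.95. The value of 0.922 was the lowest within a stage. At 56 hpf, replicate 1 was the pool farther from the others, with correlations of 0.93 and 0.931 to replicates 2 and 3, which correlated at 0.96. Fold changes of the 9 genes are therefore given with all pools and with each replicate number left out at both stages.

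The first question was whether the factors changed as a group between the stages. All 9 genes had a lower fitted level at 56 hpf than at 48 hpf (8 on the deposited scale, where *mef2ca* turned), where 50.8% of the 20805 genes tested did, with a median log2 fold change of -0.50 (56 over 48 hpf) against -0.01 over all genes tested. None of the 9 passed limma with the replicate number as a block (adjusted p under 0.05, Benjamini-Hochberg over all genes tested), a threshold that 1.08% of all genes passed, 0.211% as lower and 0.87% as higher. Without adjustment 2 of them, *nkx2.7* and *hand2*, had a p under 0.05 and were lower, as were 7.42% of all genes. The block is inferred, and with it dropped limma called 1 of the 9, *nkx2.7*, as lower (adjusted p = 0.0397, 0.606% of all genes called lower). edgeR's quasi-likelihood test, which works on the reads themselves and kept the block, called 0 after adjustment (0.75% of all genes) and 1 had an unadjusted p under 0.05 and was lower (7.01% of all genes). By edgeR's likelihood ratio test 1 was called, *nkx2.7*, as lower (8.37% of all genes in either direction, 2.58% as lower). DESeq2 called the same gene (7.21% in either direction, 1.95% as lower). Only for *nkx2.7* did the pools of the stages not overlap, with lower values at 56 hpf, a pattern shown by 11.3% of all genes, while 13.1% were apart in the other direction.

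**Figure D1:**
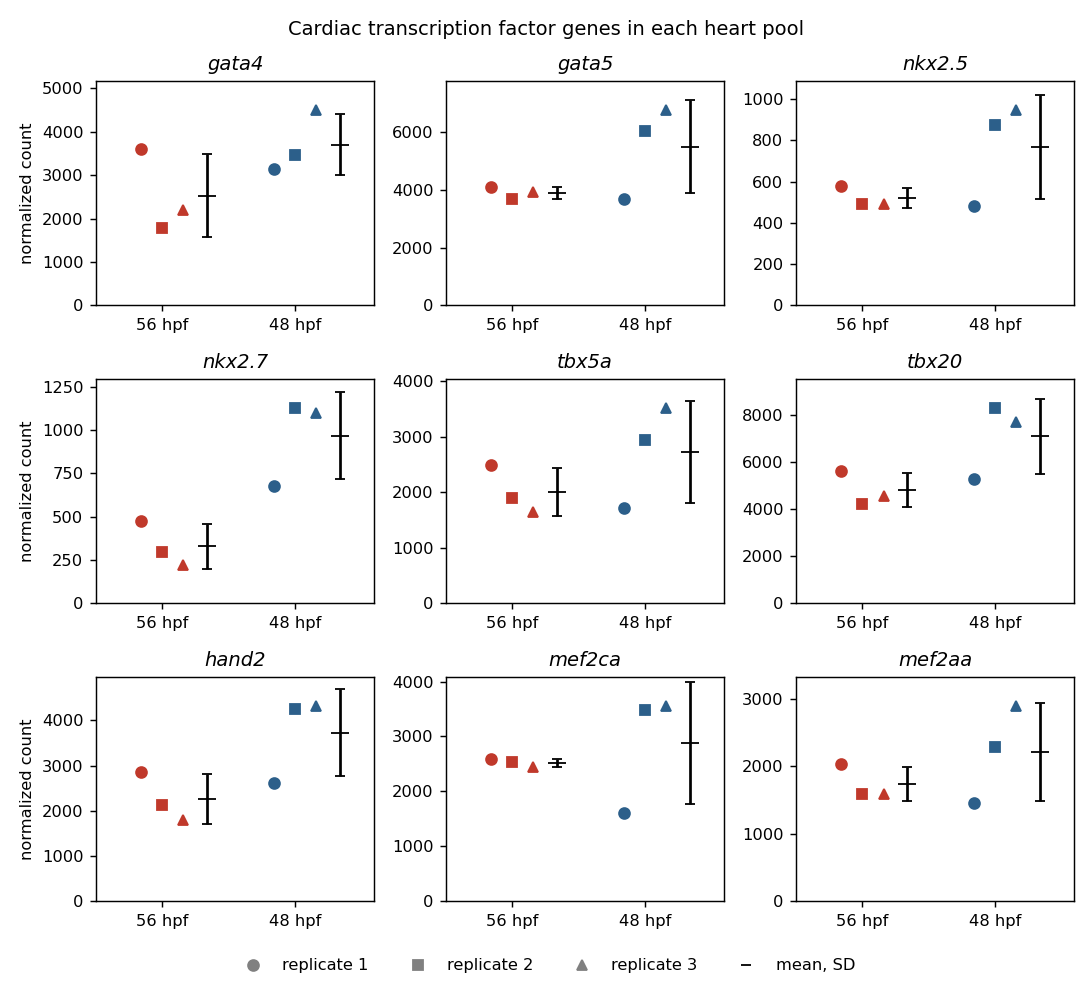
Normalized counts (linear axis from 0) of each of the 9 genes in the 3 pools at 56 hpf (red) and the 3 pools at 48 hpf (blue), with the replicate number as the symbol and the mean and SD as bars. Replicate 1 at 48 hpf is the lowest 48 hpf pool in all 9 panels, and *nkx2.7* is the gene whose stages do not overlap.

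The 9 genes shared a pattern across the pools. At 48 hpf, replicate 1 had the lowest value for 9 of 9 genes, where this held for 34.9% of all genes tested. At 56 hpf, replicate 1 had the highest value for 9 of 9 genes, where this held for 38.8%, and both features held together for 9 of 9 genes and 13.3% of all genes. Accordingly, in the pair of pools numbered 1, 8 genes had higher values at 56 hpf and only *nkx2.7* a lower one, while in the pairs numbered 2 and 3 all 9 were lower at 56 hpf, a combination of lower values that 34.9% of all genes showed (14.5% together with a higher value in pair 1). For 8 of the 9 genes, replicates 2 and 3 at 48 hpf both lay above all 3 pools at 56 hpf, compared with 19.3% of all genes. The exception was *gata4*. Pools are paired here by replicate number alone, and no label shows that same-numbered pools belong together.

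Replicate 1 held the lowest 48 hpf and the highest 56 hpf value of all 9 genes, so leaving it out widens their difference. Without replicate 1 at both stages, the fit rested on 2 pools a stage and the calls differed. Then limma called 7 of the 9 genes, all lower at 56 hpf (adjusted p under 0.05), where 3.27% of the 20248 genes tested in that fit were called lower. The log2 fold changes ranged from -2.11 for *nkx2.7* to -0.50 for *mef2ca*, with a median of -0.86. The 7 called were *gata4*, *gata5*, *nkx2.5*, *nkx2.7*, *tbx5a*, *tbx20* and *hand2*, whereas *mef2ca* (adjusted p = 0.123) and *mef2aa* (adjusted p = 0.0663) were not. When only the 48 hpf pool of replicate 1 was left out and the block was dropped, all 9 had an unadjusted p under 0.05 and were lower (8.85% of all genes) but 1 was called, *nkx2.7* (1.49% of all genes called lower). With the other pairs left out in turn, 0 of the 9 were called. The share of all genes called was 0.142% without replicate 2 and 2.85% without replicate 3, and the median log2 fold change of the 9 was -0.33 without replicate 2 and -0.28 without replicate 3. Leaving out the 56 hpf pool of replicate 1 alone, with no block, also gave 1 call, *nkx2.7* (adjusted p = 0.0232 by limma), where 0.922% of all genes were called lower.

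**Figure D2:**
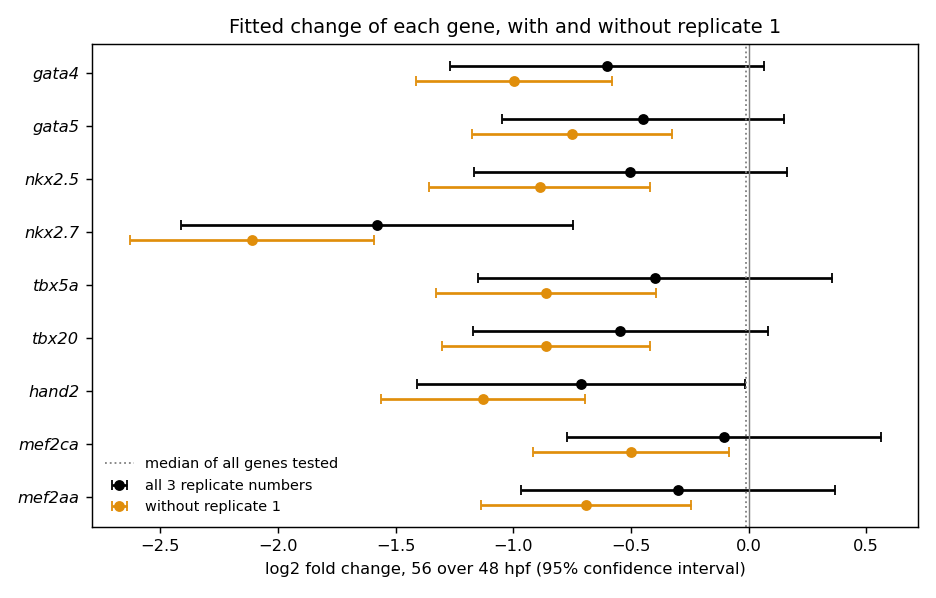
Fitted log2 fold change (56 over 48 hpf) of each gene with its 95% confidence interval from limma, with all 3 replicate numbers (black) and without replicate 1 (orange); the dotted line is the median of all genes tested. All 9 estimates lie below 0 in both fits, and with all pools only the intervals of *nkx2.7* and *hand2* lie wholly below 0, that of *hand2* ending at -0.01. Fits without replicate 2 or 3 are not drawn, and in these *mef2ca* lay above 0 (0.07 and 0.11).

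Of the 9 genes, the NK2 homeobox gene *nkx2.7* (ENSDARG00000021232) had the largest difference. It had 473, 296 and 221 normalized counts at 56 hpf, against 678, 1125 and 1096 at 48 hpf. Each 56 hpf pool was below each 48 hpf pool, and the gene was lower in 3 of 3 same-numbered pairs, as were 20.4% of all genes. The mean was 330.3 ± 129 (SD, n = 3) at 56 hpf and 966 ± 250.2 (SD, n = 3) at 48 hpf. On the log2 scale the fold change (56 over 48 hpf) was -1.58 (standard error, SE, 0.35, 95% confidence interval -2.41 to -0.75, unadjusted p = 0.00295, adjusted p = 0.0860 by limma). This corresponds to 0.334 times the 48 hpf level, and only 1.69% of all genes tested had a lower log2 fold change. The two-sided exact permutation test over the 6 pools gave p = 0.1, the smallest that 3 pools against 3 allow. The adjusted p lay on either side of the threshold depending on the fit. Without the block it was 0.0397 by limma (0.606% of all genes called lower) and 0.0445 by edgeR's quasi-likelihood test, with the block the quasi-likelihood p was 0.103, and over 20 alternatives it ranged from 0.000765 to 0.523 and was under 0.05 in 7. The log2 fold change was negative in all 20, between -2.11 and -1.22, and was -2.11, -1.41 and -1.22 without replicates 1, 2 and 3.

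The related gene *nkx2.5* (ENSDARG00000018004), the usual marker of cardiac progenitors, had 578, 491 and 491 normalized counts at 56 hpf, against 480.0, 875 and 945 at 48 hpf. The stages overlapped, because replicate 1 at 48 hpf was the lowest of the 6 pools. The means were 520.0 ± 50.3 (SD, n = 3) at 56 hpf and 767 ± 251 (SD, n = 3) at 48 hpf. This gave a log2 fold change of -0.50 (SE 0.28, adjusted p = 0.384 by limma). It was -0.89, -0.34 and -0.28 without replicates 1, 2 and 3. The ratio of the 2 genes within a pool does not depend on how libraries are scaled against each other. Of the reads of both genes together, *nkx2.5* took 55.0, 62.4 and 68.9% in replicates 1, 2 and 3 at 56 hpf, against 41.5, 43.8 and 46.3% at 48 hpf. Thus *nkx2.5* had more reads than *nkx2.7* in every 56 hpf pool and fewer in every 48 hpf pool, replicate 1 included. The log2 ratio of *nkx2.5* to *nkx2.7* averaged 0.72 ± 0.43 (SD, n = 3) at 56 hpf and -0.36 ± 0.14 (SD, n = 3) at 48 hpf. The difference of 1.08 gave p = 0.1 by the two-sided exact permutation test (adjusted p = 0.600 over the 14 ratios compared), and it was 1.22, 1.07 and 0.94 without replicates 1, 2 and 3. Transcript length enters the reads of a gene, so the ratio compares pools and not the abundance of the genes. Chosen after its values were seen and given with no test, the log2 level of *nkx2.7* minus the mean of the other 8 genes was -2.43, -2.73 and -3.14 at 56 hpf, against -1.60, -1.57 and -1.75 at 48 hpf. The part of cells other than heart muscle in the *nkx2.7* and *nkx2.5* values, and so in their ratio, was not tested.

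**Figure D3:**
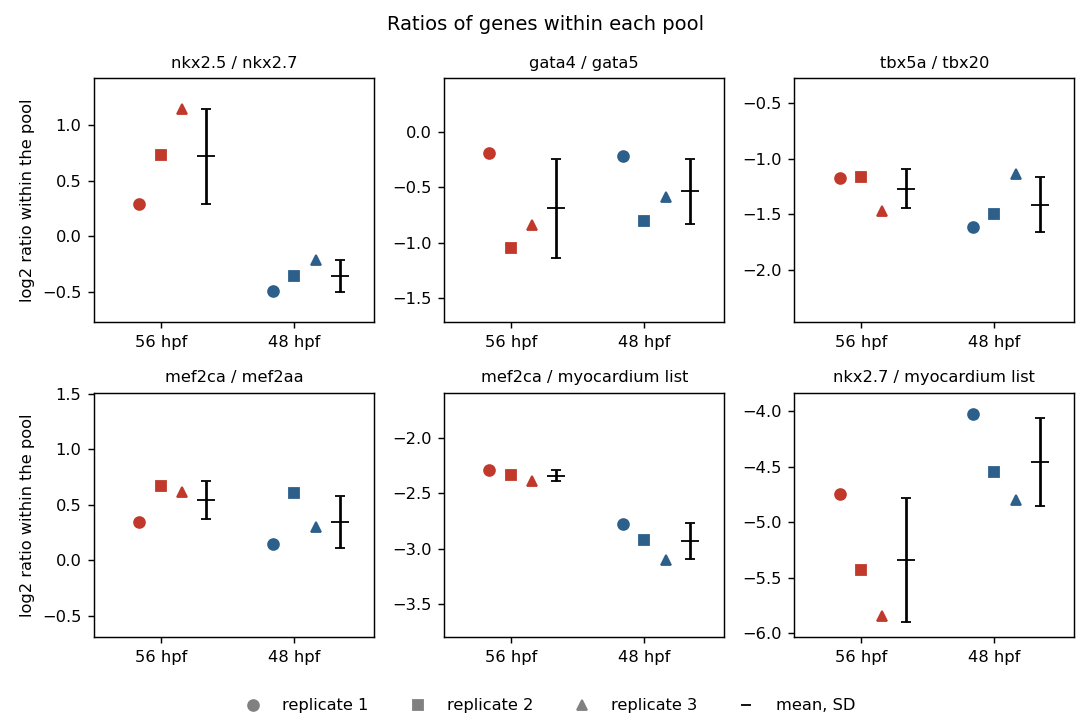
Log2 ratios of genes within each pool (replicate number as the symbol, mean and SD as bars) at 56 hpf (red) and 48 hpf (blue); every panel spans the same number of log2 units around its own centre. The stages are apart for *nkx2.5* to *nkx2.7* and for *mef2ca* to the mean of the myocardium list, and they overlap in the other 4 panels.

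Hand2, a basic helix-loop-helix factor needed for the growth of the myocardium, came next in size of difference. *hand2* (ENSDARG00000008305) had 2867, 2127 and 1801 normalized counts at 56 hpf, against 2625, 4255 and 4315 at 48 hpf. Only replicate 1 at 48 hpf fell within the range of the 56 hpf pools. The means were 2265 ± 547 (SD, n = 3) at 56 hpf and 3732 ± 959 (SD, n = 3) at 48 hpf. By the fit, *hand2* had a log2 fold change of -0.71 (SE 0.29, unadjusted p = 0.0467, adjusted p = 0.263 by limma). Without replicates 1, 2 and 3 it was -1.13, -0.57 and -0.44. Genes of a cartilage and pharyngeal arch list, read because *hand2* is also used in the arches, did not move as one. Of its 12 genes, 5 passed the test as higher at 56 hpf (0.87% of all genes) and 1 as lower (0.211% of all genes). Named after their values were seen, the 5 were the cartilage matrix genes *acana*, *col9a3*, *col11a2*, *col2a1a* and *matn1*. Called lower was the arch gene *barx1* (415, 389 and 242 normalized counts at 56 hpf, against 1210, 1171 and 518 at 48 hpf). The transcription factor genes *dlx2a*, *sox9a* and *dlx5a* on this list had log2 fold changes of -0.97, -0.34 and 0.06, without a call. The summed level of this list was 7669 to 8546 at 56 hpf and 3168 to 10243 at 48 hpf, highest in replicate 1 at 48 hpf, and the part of such cells in the *hand2* values was not tested.

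The GATA factors differed from each other in spread. *gata4* (ENSDARG00000035759), an activator of contractile genes, had 3600, 1774 and 2196 normalized counts at 56 hpf, against 3154, 3457 and 4497 at 48 hpf. Replicate 1 at 56 hpf lay inside the 48 hpf range, so the stages overlapped from the 56 hpf side. The log2 fold change was -0.60 (SE 0.28, adjusted p = 0.313 by limma), and it was -0.997, -0.42 and -0.39 without replicates 1, 2 and 3. *gata5* (ENSDARG00000017821), which acts in myocardium, endocardium and endoderm, had 4106, 3675 and 3927 normalized counts at 56 hpf, against 3675, 6056 and 6762 at 48 hpf. Replicate 1 at 48 hpf lay next to the lowest 56 hpf pool and the other 48 hpf pools above all 3. The 56 hpf pools of *gata5* lay close together, with a coefficient of variation of 5.56% at 56 hpf and 29.4% at 48 hpf, whereas that of *gata4* was 37.9% at 56 hpf and 19.0% at 48 hpf. For *gata5* the log2 fold change was -0.45 (SE 0.25, adjusted p = 0.387 by limma), with -0.75, -0.31 and -0.28 when replicates 1, 2 and 3 were left out in turn. The share of *gata4* in the reads of both genes was 46.7, 32.6 and 35.9% at 56 hpf and 46.2, 36.3 and 39.9% at 48 hpf, so that it was highest in replicate 1 at each stage. The log2 ratio differed between the stages by -0.15 (exact permutation over pools, two-sided, p = 0.7). Markers of liver, gut and yolk, tissues that also use GATA factors, varied widely between pools of a stage, with 0 of 11 genes called. Of them 2 had an unadjusted p under 0.05, as had 18.5% of all genes in either direction. The summed normalized count was 65796, 5044 and 62725 in replicates 1, 2 and 3 at 56 hpf, against 39731, 7312 and 20470 at 48 hpf. The largest part was *apobb* in every pool (46556, 2021 and 45024 at 56 hpf, against 32928, 3186 and 14753 at 48 hpf). The part of such tissues in the GATA values was not tested.

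The T-box genes had lower means at 56 hpf, without a call. *tbx20* (ENSDARG00000005150), a regulator of chamber growth expressed in myocardium and endocardium, had 5610, 4235 and 4560 normalized counts at 56 hpf, against 5275, 8276 and 7707 at 48 hpf. Its log2 fold change was -0.54 (SE 0.26, adjusted p = 0.325 by limma), and -0.86, -0.33 and -0.44 without replicates 1, 2 and 3. *tbx5a* (ENSDARG00000024894) had 2489, 1890 and 1649 normalized counts at 56 hpf, against 1724, 2936 and 3508 at 48 hpf. Its log2 fold change was -0.40 (SE 0.32, adjusted p = 0.541 by limma). Leaving out replicates 1, 2 and 3 in turn gave -0.86, -0.28 and -0.054, so the size of the *tbx5a* difference depended on the pair left out. For both genes replicate 1 at 48 hpf was the pool that overlapped with 56 hpf. The log2 ratio of *tbx5a* to *tbx20* differed by 0.15 between the stages (exact permutation over pools, two-sided, p = 0.6) and by 0.39 without replicate 3, while without replicate 1 no difference was left (-0.000149). Since *tbx5a* also marks the pectoral fin bud, fin markers were read beside it. Of 8 such genes 1 was called, as higher (0.87% of all genes), and 0 as lower. Their sum was 7577, 8907 and 1421 normalized counts at 56 hpf and 2337, 4074 and 4093 at 48 hpf. Much of this sum came from 2 genes, named after their values were seen. *and2* had 4590, 5533 and 588 at 56 hpf, against 1626, 3342 and 3461 at 48 hpf. *and1* had 2028, 2380 and 8.7 at 56 hpf, against 104, 16.3 and 22.5 at 48 hpf. The part of such cells in the *tbx5a* values was not tested.

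The MEF2 genes, which encode MADS-box activators of muscle genes, had the smallest differences of the 9. *mef2ca* (ENSDARG00000029764) had 2590, 2536 and 2440 normalized counts at 56 hpf, against 1607, 3487 and 3551 at 48 hpf. The 56 hpf pools thus fell between replicate 1 and the other pools of 48 hpf, with a coefficient of variation of 3.01% at 56 hpf and 38.3% at 48 hpf. The log2 fold change was -0.10 (SE 0.28, 95% confidence interval -0.77 to 0.56, adjusted p = 0.877 by limma), an interval that allows 0.586 to 1.48 times the 48 hpf level, and its sign turned to positive on the deposited scale (0.02). Without replicates 1, 2 and 3 the value for *mef2ca* was -0.50, 0.07 and 0.11. *mef2aa* (ENSDARG00000031756) had 2033, 1595 and 1591 normalized counts at 56 hpf, against 1454, 2293 and 2890 at 48 hpf. Its log2 fold change was -0.30 (SE 0.28, adjusted p = 0.608 by limma), and -0.69, -0.19 and -0.021 without replicates 1, 2 and 3. Mef2 proteins also act in skeletal muscle, and 15 of 17 skeletal muscle markers had a higher fitted level at 56 hpf. Of these 11 were called, where 0.87% of all genes were called higher. The summed levels were 24314 to 37945 at 56 hpf and 7380 to 14679 at 48 hpf. The part of such RNA in the *mef2ca* and *mef2aa* values was not tested.

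The cardiac factors were next set beside marker genes of heart muscle, of endocardium and of other tissues. Of 19 myocardium genes tested, 18 had a lower fitted level at 56 hpf and 0 were called by limma. Of these, 5 were lower with an unadjusted p under 0.05 (7.42% of all genes). The median log2 fold change of this list was -0.70. The exception, the calcium pump gene *atp2a2a*, had a log2 fold change of 0.09. Without replicate 1 all 19 were lower and 13 were called, with a median of -1.17, where 3.27% of all genes in that fit were called lower. Endocardial and endothelial genes such as *cdh5*, the endothelial cadherin, and *kdrl*, a VEGF receptor, had a median of -0.46, with 10 of 10 lower and 0 called (0 at an unadjusted p under 0.05). Without replicate 1, 3 of these 10 were called lower (3.27% of all genes in that fit). Replicate 1 at 48 hpf was low for each of these groups, at -0.22 on the log2 scale relative to the mean of the 6 pools for the 9 factors, at -0.56 for the myocardium list and at -0.25 for the endocardial list. In whole hearts, fewer cells of a type and less RNA per cell cannot be told apart. Markers of other tissues were present as well. Of 10 epidermal genes tested, 9 had a higher fitted level at 56 hpf and 1 was called, with summed levels of 452331 to 746509 at 56 hpf and 179330 to 427581 at 48 hpf. Of 10 neural genes 9 were higher and 0 called (3 at an unadjusted p under 0.05), and of 4 epicardial genes 4 were higher and 0 called (2 at an unadjusted p under 0.05). Of all genes, 18.5% had an unadjusted p under 0.05 in either direction. Blood genes summed to 10704 to 30723 at 56 hpf and to 60320 to 84609 at 48 hpf. The part of these tissues in the levels of the 9 factors was not tested.

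**Figure D4:**
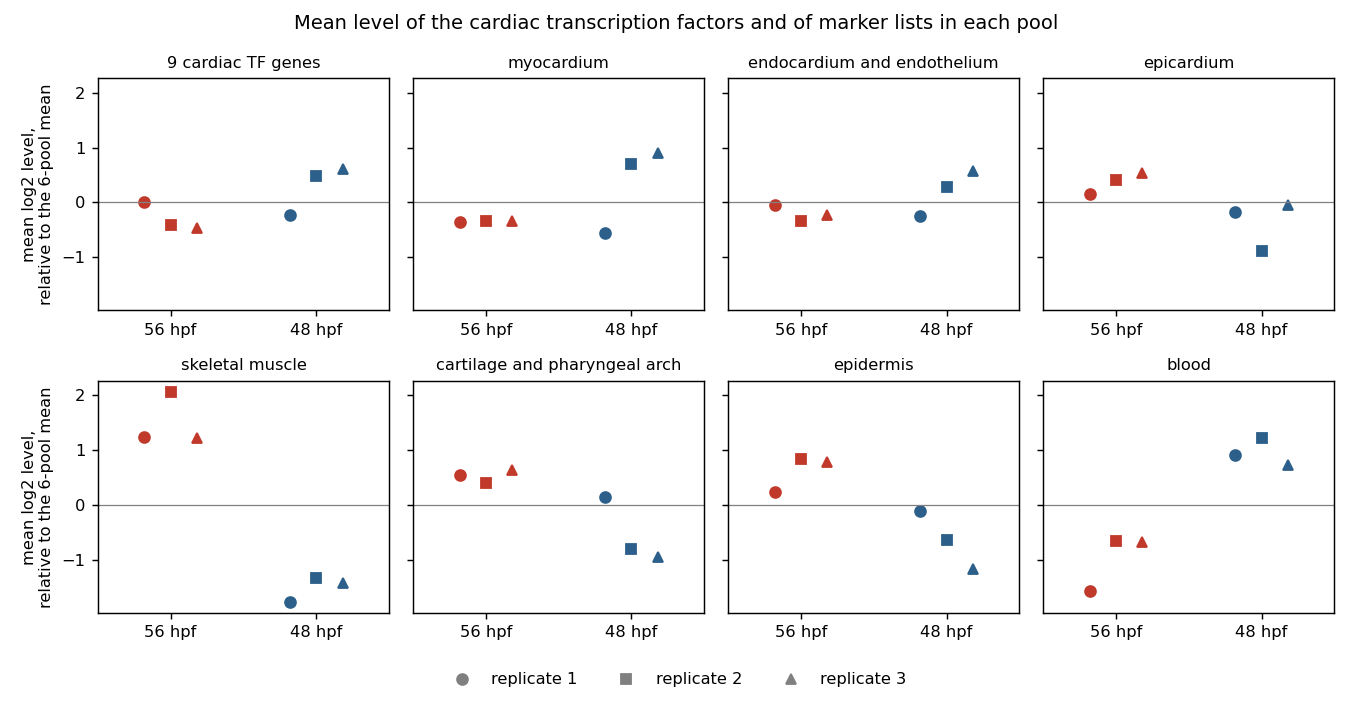
Mean log2(normalized count + 1) over the genes of each list in each pool, relative to the mean of the 6 pools (same vertical axis in all panels), at 56 hpf (red) and 48 hpf (blue). In replicate 1 at 48 hpf the 9 factors (-0.22) and the myocardium list (-0.56) lie below the other 48 hpf pools. The value of the 9 factors falls within the range of the 56 hpf pools, and that of the myocardium list below all 3 of them. The epicardium, skeletal muscle, cartilage, epidermis and blood lists separate all 3 pools of one stage from those of the other.

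Relative to the mean log2 level of the 19 myocardium genes in the same pool, the factors showed stages that overlapped for 8 of the 9 genes. Of these 9 ratios, 7 were higher at 56 hpf and 2 lower, with differences from -0.88 for *nkx2.7* to 0.59 for *mef2ca*. For *mef2ca* the stages did not overlap, with log2 ratios of -2.29, -2.34 and -2.39 at 56 hpf, against -2.78, -2.92 and -3.10 at 48 hpf (exact permutation over pools, two-sided, p = 0.1, adjusted p = 0.600 over the 14 ratios). For *nkx2.7* they were -4.74, -5.43 and -5.85 at 56 hpf, against -4.02, -4.55 and -4.80 at 48 hpf, and only replicate 1 at 56 hpf and replicate 3 at 48 hpf overlapped (p = 0.2 by the same exact test). The other 7 ratios differed by -0.01 for *hand2* to 0.40 for *mef2aa*, with exact permutation p between 0.3 and 0.9. Such a ratio shows unequal change of a factor and of the myocardial genes, not which of them changed.

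Other genes of the same families were counted for comparison. Among 23 such genes tested, 9 had a higher and 14 a lower fitted level at 56 hpf, with a median log2 fold change of -0.19, and 1 was called by limma. This was *gata1a*, the erythroid GATA factor, which fell to 220.2, 190.2 and 135 normalized counts at 56 hpf, against 767, 537 and 436 at 48 hpf (log2 fold change -1.66, adjusted p = 0.0268). It also stands on the blood list, of which all 13 genes had a lower fitted level at 56 hpf. Of these 7 were called, where 0.211% of all genes were called lower. The summed level of these 23 genes was 17520, 15216 and 15194 normalized counts at 56 hpf, against 17452, 17033 and 16919 at 48 hpf. Replicate 1 at 48 hpf was thus not low in this sum, which does not hold for each gene in it. The sum of the 9 factors was 24348, 18618 and 18875 at 56 hpf, against 20671, 32761 and 35270 at 48 hpf. Close paralogues of the 9, named after their values were seen, had no call, with log2 fold changes of -0.19 for *tbx5b*, -0.23 for *mef2cb* and -0.10 for *mef2d*. These paralogues were lowest at 48 hpf in replicate 1, as the 9 factors were. In replicates 1, 2 and 3 at 48 hpf *tbx5b* had 199, 362 and 594 normalized counts. There *mef2cb* had 526, 747 and 836, and *mef2d* 4283, 5477 and 5893.

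Partner and cofactor genes likewise gave no call. Of 25 genes tested from a list of cardiac transcription cofactors, 10 had a higher and 15 a lower fitted level at 56 hpf, with a median log2 fold change of -0.14. After adjustment 0 passed the test. Of the 25, 4 had an unadjusted p under 0.05, while 18.5% of all genes had one in either direction, so these 4 do not stand out. The lowest p belonged to *zfpm1*, which encodes a Friend of GATA cofactor, with 3035, 2137 and 2244 normalized counts at 56 hpf, against 3872, 4390 and 4368 at 48 hpf. Each 56 hpf pool was below each 48 hpf pool (log2 fold change -0.78, adjusted p = 0.133 by limma). Next were the homeobox genes *meis2b* (log2 fold change 0.77, adjusted p = 0.136) and *pbx1a* (1.05, adjusted p = 0.152), whose proteins bind DNA together, and both had higher values in each 56 hpf pool than in each 48 hpf pool. The name *pbx1a* is carried by 2 gene identifiers in the files, and the second had a log2 fold change of 0.59 (adjusted p = 0.419). The muscle coactivator gene *myocd* was not matched and is not analysed here. Without replicate 1, 2 of the 25 partner genes were called lower, against 7 of the 9 factors and 13 of the 19 myocardium genes. Of the other family genes 4 of the 21 tested were called lower (median log2 fold change -0.38), and of the endocardial genes 3 of 10 (median -0.72). In that fit 3.27% of all genes were called lower.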

How the data were processed

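The deposited values are signal, that is, read counts per gene scaled by a size factor; per the methods, the authors aligned reads to Zv9 and counted uniquely aligned reads on Ensembl genes with HTSeq. The processing notes of the submitters name HTSeq 0.5.4p3 and DESeq 1.10.1. Only uniquely aligned reads were kept, so reads shared by near-identical paralogues are missing, and strand use is not given in the sources used here. In each library 100% of values divided evenly by what 1 read is worth (relative tolerance 1e-04), which gave back the reads. They were divided by RLE size factors of the 6 libraries. Genes were kept by filterByExpr (minimum count 10, minimum total 15), which left 20805 of 29978 genes. log2(normalized count + 1) was fitted with limma 3.58.1 (R 4.3.3), with a variance trend and the replicate number as a block, because the methods of the study adjust for differences between experiments. No label ties replicate numbers to experiments, so this is inferred. The sample titles carry a further code for each pool, and these codes do not repeat by replicate number. The only code shared between the stages stands on replicate 1 of the earlier stage and replicate 3 of the later. The titles do not say what the codes stand for, so whether same-numbered pools belong together cannot be decided. Benjamini-Hochberg adjusted p under 0.05 was called. Fold changes are on this log2 scale, which understates changes of low genes. edgeR 4.0.16 and DESeq2 1.42.0 were run on the recovered reads as alternatives. edgeR's quasi-likelihood test with the block called 156 genes, against 225 by limma. The fit was tested on simulated counts. The 9 genes, the lists of markers and partners and the ratios were chosen with earlier results of these data known. All 9 genes are named, and of the family and partner lists those called or, with none called, the 3 with the lowest p. Replicate libraries of a stage correlated at 0.922 to 0.96 and differed beyond sampling noise. Per the labels, cDNA was amplified from total RNA, whereas the methods describe poly-A selection. Labels do not say that pools came from separate clutches, so p-values measure the spread between these pools. Counting floors cover counting error only. Sequences and genome positions are not analysed here.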

Additional observations from a re-analysis of the deposited data

How the results depend on the processing

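The fits were repeated under 20 alternatives. The use of the replicate number as a block was inferred from the study's methods, and the codes in the sample titles do not repeat by replicate number. In these data the deviations of same-numbered pools correlated over genes at 0.0287, 0.193 and -0.0537 for replicates 1, 2 and 3. Pools of different number correlated at -0.164 to 0.0909. The pair of replicate 2 was thus the highest, and those of replicates 1 and 3 lay within the range of differently numbered pools. Without the replicate block 560 genes were called (2.69% of all genes), against 225 with it, and 1 of the 9 factors, *nkx2.7*. By edgeR's quasi-likelihood test without the block these counts were 516 and 1, by edgeR's likelihood ratio test 1741 and 1, and by DESeq2 1501 and 1. With no filter 346 genes were called, and with at least 10 reads in every sample 136. Leaving out a replicate number gave 28 to 2035 genes and 0 to 7 factors, and leaving out a single pool, with no block, gave 1143, 111 and 477 genes without 48 hpf replicates 1, 2 and 3 and 719, 56 and 91 without those of 56 hpf, with 0 to 1 factors. The deposited scale moved the median of all genes to 0.11 and that of the factors to -0.38. The log2 fold change of *mef2ca* turned positive on the deposited scale (0.023), without replicate 2 (0.075) or 3 (0.11) and without 48 hpf replicate 2 (0.073) or 3 (0.082), and was -0.50 without replicate 1. Among within-pool ratios, *tbx5a* to *tbx20* turned to -0.000149 without replicate 1 (0.39 without 3), *tbx20* to the myocardium list to -0.020 without replicate 3 (0.28 without 1), and *hand2* to that list to 0.014 without replicate 1 (-0.040 without 2). The cause was not tested. No other direction of the 9 factors or the 14 ratios turned.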
